A study of Homo sapiens with 12 samples.

Results

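ER-associated degradation (ERAD) is the route by which a cell removes misfolded proteins from the endoplasmic reticulum (ER). Lectins and mannosidases read the sugars of a misfolded glycoprotein, and ubiquitin ligase complexes in the ER membrane move it back across the membrane and tag it together with their E2 enzymes. The ATPase VCP and its cofactors then pull the tagged protein into the cytosol for the proteasome. The pathway works in every cell type, and its HRD1 branch is known as a target of the unfolded protein response, the transcriptional programme that follows ER stress. The 37 genes described here encode this machinery and were chosen by name from the 28278 genes of the count table. By role they comprise 8 lectins, mannosidases and glucosyltransferases, 10 members of the HRD1 complex and derlins, 9 other membrane ligases and their partners, 4 genes of the E2 enzymes and their recruiter, and 6 extraction and cytosolic factors.

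The samples were motor neurons differentiated from WA09-Islet1-GFP, a wild-type human embryonic stem cell line in which GFP reports Islet1, a transcription factor of motor neurons. Cultures received the organochlorine pesticide cis-chlordane (10 µM in the sample labels, with another dose in the study's methods) or the same volume of its solvent DMSO for 16 hours, after which cells were sorted on their GFP signal. The 4 groups of 3 libraries are control and treated GFP-positive cells, which hold the Islet1-expressing motor neurons, and, from each treatment, GFP-negative cells, the remainder of the same cultures. All groups come from 1 cell line, and the replicates are biological replicates by their labels, so p-values measure the spread between cultures of that line and not between donors.

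The depth of the libraries ran from 23414935 to 38347050 counts (median 31553596). Levels are given as CPM, counts scaled to library size by TMM over the 12 libraries. The 6 motor neuron markers (ISL1, MNX1, CHAT, SLC18A3, SLC5A7, PRPH) summed to 1708–2307 CPM in control GFP-positive cells, 536–859 CPM in treated GFP-positive cells, 268–294 CPM in control GFP-negative cells and 96.7–116 CPM in treated GFP-negative cells. The 3 cycling markers summed to 52.2–80.9, 28.2–31.3, 396–530 and 127–172 CPM in the same order. Of the pluripotency markers, POU5F1 was at 0 in all 12 libraries and NANOG at or under 0.0286 CPM. LIN28A, from the same list, had 148–163, 44.3–53.9, 163–201 and 68.1–99.2 CPM in the same order. Of the progenitor markers, means in GFP-positive cells went from 7.93 to 30.5 CPM for PAX6 and from 3.15 to 5.88 CPM for OLIG2. SOX2 went from 13.8 to 13.2 CPM there and NES from 1499 to 1051 CPM, and HES5 was near 0. Among the motor neuron markers, MNX1 alone did not fall in GFP-negative cells (means of 4.34 and 4.81 CPM). The loss of motor neuron marker RNA therefore moved with treatment in the same libraries as each result below, and its part in those results was not tested. In such bulk samples fewer cells of a type and less RNA per cell cannot be told apart. The library of control GFP-negative replicate 3 stood apart, with 4046 CPM of 3 blood genes (HBB, HBA1, PTPRC) against 3.32 and 4.47 CPM in the other control GFP-negative libraries. Treated GFP-negative replicates 1 and 3 held 159 and 129 CPM of them, replicate 2 held 0.255 CPM, and no GFP-positive library held more than 18.3 CPM. The numbers of genes called in GFP-negative cells, and the fold changes of most genes named there, are therefore given also without control replicate 3.

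ERAD genes rose with cis-chlordane in both sort fractions, and the HRD1 complex and derlins held most of the large changes. In GFP-positive cells 36 of the 37 genes had enough counts to be tested, all but DERL3. At an adjusted p under 0.05 (quasi-likelihood test of edgeR, Benjamini-Hochberg adjusted over all genes tested), 21 rose and 3 fell, while 12 did not pass. Across all 15333 genes tested, 26.5% rose and 24.4% fell. With a fold change of at least 2 added, 12 ERAD genes rose and 0 fell, where 12.8% of all genes rose and 11.2% fell. All treated libraries lay above all control libraries for 22 ERAD genes and below them for 5, against 26.9% and 30.6% of all genes. The median log2 fold change was 0.52 over the 36 genes and 0.03 over all genes.

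In GFP-negative cells the same 36 genes were tested, and 19 rose and 1 fell, where 15.3% of 15513 genes rose and 16.2% fell. With a fold change of at least 2, 12 rose and 0 fell, against 8.59% and 9.75% of all genes. The treated libraries lay above the controls without overlap for 22 ERAD genes and below them for 1, against 24% and 22.6% of all genes. The median log2 fold change was 0.65, beside -0.01 over all genes. Without control replicate 3, 20 rose, 1 fell, and 14 rose with a fold change of at least 2, where 17.5%, 17.4% and 10.2% of 15859 genes did.

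The role groups differed in how many of their genes rose, which is given here as counts only. In GFP-positive cells 8 of the 9 tested genes of the HRD1 complex and derlins rose, each by at least 2-fold, with a median log2 fold change of 1.39. Among the lectins and mannosidases 5 of 8 rose, 3 of them by at least 2-fold, with a median of 0.72. Of the 4 E2 genes 2 rose, 1 of them by at least 2-fold, and the median was 0.33. Of the 9 other membrane ligases and partners 4 rose and 2 fell, none by 2-fold, with a median of 0.22. Of the 6 extraction and cytosolic factors 2 rose and 1 fell, none by 2-fold, with a median of 0.09. GFP-negative cells gave medians of 1.62, 0.58, 0.39, 0.63 and 0.36 in the same order, and 8, 4, 2, 4 and 1 genes rose. Without control GFP-negative replicate 3 these medians were 1.56, 0.92, 0.29, 0.65 and 0.31, and 8, 5, 1, 4 and 2 genes rose.

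The role groups were also summed on the CPM scale. The HRD1 complex and derlins summed to 495, 497 and 535 CPM in the control GFP-positive libraries and to 1954, 1593 and 2245 CPM in the treated ones. The extraction and cytosolic factors summed to 629, 705 and 629 CPM in the controls and to 582, 576 and 649 CPM after treatment. The treated sums of the first group lay far above the controls, and those of the second group overlapped them. In GFP-negative cells the extraction and cytosolic factors summed to 699, 652 and 597 CPM in control and 725, 747 and 778 CPM in treated libraries, without overlap, and the HRD1 complex and derlins to 388–435 and 1491–2224 CPM. The sums of the other groups did not overlap in GFP-positive cells either, with 632–665 against 827–961 CPM for the lectins and mannosidases, 547–593 against 636–671 CPM for the other membrane ligases and 358–416 against 453–495 CPM for the E2 genes. In GFP-negative cells these groups went from 504–635 to 814–905 CPM, from 441–485 to 600–721 CPM and from 360–472 to 518–684 CPM. All 37 genes together summed to 2720–2823 CPM in control and 4094–4916 CPM in treated GFP-positive cells, and to 2290–2725 and 4170–5311 CPM in GFP-negative cells.

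**Figure D1:**
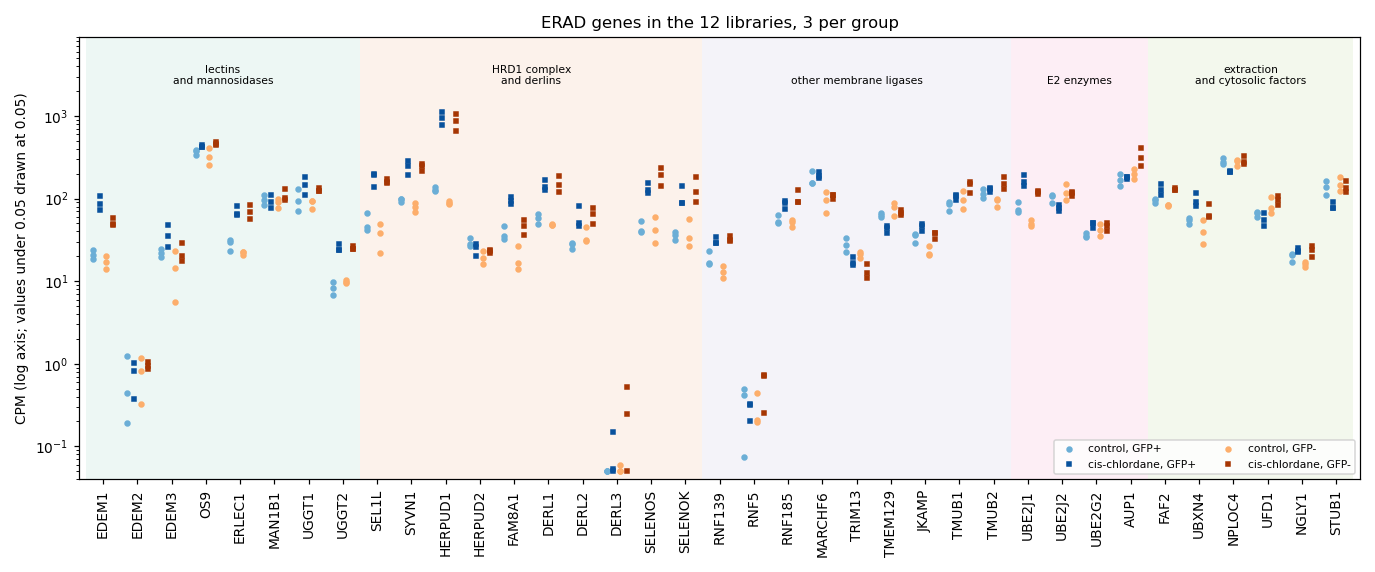
CPM (log axis) of the 37 ERAD genes in each of the 12 libraries, with circles for control and squares for cis-chlordane libraries and shading for the role groups. HERPUD1 is the gene whose treated libraries (775 to 1130 CPM in GFP-positive cells) lie highest, while DERL3, RNF5 and EDEM2 lie near or below 1 CPM.

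Among the lectins, mannosidases and glucosyltransferases, EDEM1 showed the largest change. EDEM1 trims mannose from misfolded glycoproteins and so marks them for disposal. It had 23.6, 18.6 and 20.8 CPM in the control GFP-positive libraries and 109, 73.3 and 87.1 CPM in the treated ones. The groups did not overlap, and the log2 fold change was 2.17 ± 0.19 (standard error, SE, adjusted p = 6.8e-12). In GFP-negative cells it went from 13.9, 17.2 and 20.2 CPM to 58.6, 47.9 and 49.8 CPM, and its log2 fold change was 1.59 ± 0.20 (SE, adjusted p = 0.00039), or 1.72 without control replicate 3. Its paralogue EDEM3 had 19.8, 22.1 and 24.8 CPM in control and 35.6, 26.3 and 47.7 CPM in treated GFP-positive cells. That is a smaller rise with a wider spread, with a log2 fold change of 0.78 (adjusted p = 0.0012), and it was not called once each library's trend with GC content was removed (0.32, adjusted p = 0.13). In GFP-negative cells EDEM3 did not pass (log2 fold change 0.62, adjusted p = 0.29) with control libraries at 5.58, 14.4 and 23.3 CPM, of which the last is the library with the blood genes. Without that library it was 1.15 (adjusted p = 0.03). EDEM2 had 0.192 to 1.25 CPM in all libraries, and a readthrough transcript that contains it, MMP24-AS1-EDEM2, is counted separately at 0.0579 to 0.92 CPM, so its level is uncertain.

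UGGT1 and UGGT2 add glucose back to glycoproteins that have not folded, which returns them to the chaperone cycle. UGGT2 had 9.88, 8.23 and 6.88 CPM in control and 27.9, 23.7 and 23.9 CPM in treated GFP-positive libraries. The treated libraries all lay above the controls, with a log2 fold change of 1.66 ± 0.20 (SE, adjusted p = 1.9e-08). In GFP-negative cells UGGT2 went from 9.46–10.4 to 24.4–26.4 CPM, and its log2 fold change was 1.33 (adjusted p = 0.00051), or 1.36 without control replicate 3. UGGT1 rose less, by 0.65 on the log2 scale in GFP-positive cells (adjusted p = 0.0048), and its groups overlapped, with control libraries at 92.6, 70.2 and 132 CPM and treated ones at 181, 111 and 148 CPM. This call was lost without control GFP-positive replicate 2 (0.45, adjusted p = 0.088) and without treated GFP-positive replicate 1 (0.46, adjusted p = 0.057). In GFP-negative cells UGGT1 went from 74.9–94.1 to 123–136 CPM (0.53, adjusted p = 0.027), a call lost without control replicate 1 (0.43, adjusted p = 0.059) or 2 (0.58, adjusted p = 0.076) or any treated replicate (0.47 to 0.55, adjusted p = 0.051 to 0.14).

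ERLEC1 and OS9 are the lectins that bind trimmed glycans and hand the substrate to the SEL1L–HRD1 complex. ERLEC1 had 30.2, 23 and 31.8 CPM in control and 65, 63.4 and 80.4 CPM in treated GFP-positive libraries, without overlap. Its log2 fold change was 1.36 ± 0.18 (SE, adjusted p = 9.8e-08), and 1.66 in GFP-negative cells (adjusted p = 0.00022), or 1.67 without control replicate 3. OS9, the far more abundant of the pair, had 393, 376 and 340 CPM in control and 449, 419 and 427 CPM in treated GFP-positive libraries. The treated libraries lay above the controls, but the change of 0.29 on the log2 scale did not pass (adjusted p = 0.11), although it did with the GC trend removed (0.49, adjusted p = 0.0024). In GFP-negative cells OS9 went from 410, 316 and 255 CPM to 491, 443 and 462 CPM and did not pass (0.49, adjusted p = 0.074). It was called there with the GC trend removed (0.61, adjusted p = 0.019) and with all 12 libraries in 1 fit (0.51, adjusted p = 0.018). The CPM ratio of ERLEC1 to OS9 went from 0.0611–0.0937 to 0.145–0.188 in GFP-positive cells and from 0.0557–0.0879 to 0.129–0.182 in GFP-negative cells. MAN1B1, the ER mannosidase that makes the first cut, stayed between 77.5 and 130 CPM in the 12 libraries and passed in neither fraction.

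In the HRD1 group, HERPUD1 gave the largest change of all 37 genes. It encodes HERP, a membrane protein with a ubiquitin-like domain that binds HRD1. It had 122, 138 and 126 CPM in the control GFP-positive libraries and 948, 775 and 1130 CPM in the treated ones, and the lowest treated library was several-fold above the highest control. The log2 fold change was 2.95 ± 0.17 (SE, adjusted p = 4.6e-16), with 3.24 ± 0.20 (SE, adjusted p = 1.2e-05) in GFP-negative cells and 3.21 there without control replicate 3. HERPUD1 made up 4.5–4.88% of the summed CPM of the 37 genes in control GFP-positive libraries and 18.9–23% in treated ones, and 3.45–3.73% and 15.6–19.6% in GFP-negative cells. By CPM it ranked 6 among the 37 genes in each control GFP-positive library, between 8 and 11 in the control GFP-negative libraries, and 1 in each treated library. Its paralogue HERPUD2 had 28.2, 26.5 and 33.3 CPM in control and 28.1, 20.2 and 25.8 CPM in treated GFP-positive cells, which overlapped (log2 fold change -0.18, adjusted p = 0.43), and in GFP-negative cells it did not pass either (0.22, adjusted p = 0.4). The CPM ratio of HERPUD1 to HERPUD2 was 3.78–5.19 in control and 33.8–43.8 in treated GFP-positive libraries, and 3.68–5.77 and 27.4–47.1 in GFP-negative ones.

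The sequence before the HERPUD1 start is shown because it was the only window of a tested ERAD gene of the 37 with an ER stress element, a motif known from genes of the unfolded protein response. RefSeq promoter windows (GRCh38.p14, 250 bases before to 50 after the start) were found for 28 of the 37 genes and searched on both strands. The motifs were ERSE (CCAAT, 9 bases, CCACG), ERSE-II (ATTGG, 1 base, CCACG), the UPRE core TGACGTGG and the composite site of ATF4 and C/EBP factors TGATGNAA. HERPUD1 held ERSE-II at -117 to -107 and the composite site, on the other strand, at -176 to -169 from the start. In the stretch below (chr16:56931954-56932047, plus strand) capitals mark first the composite site, which reads in reverse complement here, and then both parts of ERSE-II.
HERPUD1: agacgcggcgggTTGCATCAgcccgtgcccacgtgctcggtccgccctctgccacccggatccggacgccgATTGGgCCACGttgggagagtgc
Among the 28 genes 1 held ERSE-II (3.57%), 0 held ERSE, 1 held the UPRE core (3.57%) and 1 held the composite site (3.57%). Of the 18292 genes of the count table with a window, 0.082% held ERSE-II, 0.126% ERSE, 1.03% the UPRE core and 3.89% the composite site. A match describes letters in a window and not a bound site, and the other genes of the HRD1 group with a window held none of these letters within it. The elements are known from genes of this response and the genes were chosen by name, so these shares are a description and not a test.

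SEL1L, the scaffold that holds HRD1 and its lectins together, had 41.1, 45.5 and 66.1 CPM in control and 199, 140 and 192 CPM in treated GFP-positive libraries. The groups did not overlap, and the log2 fold change was 1.87 ± 0.18 (SE, adjusted p = 1.8e-10). In GFP-negative cells it went from 22.2, 37.9 and 49 CPM to 172, 160 and 155 CPM, with a log2 fold change of 2.14 ± 0.26 (SE, adjusted p = 0.00035), or 2.41 without control replicate 3. SYVN1 encodes HRD1, the ligase itself, and went from 92.2–99.4 to 193–283 CPM in GFP-positive cells (log2 fold change 1.38, adjusted p = 1.3e-08) and from 69.5–88.8 to 214–266 CPM in GFP-negative cells (1.60, adjusted p = 0.00015). FAM8A1, a cofactor that binds HRD1, went from 32.2–47 to 85.5–106 CPM in GFP-positive cells (1.39, adjusted p = 4.7e-08) and from 14–26.8 to 36.4–55.8 CPM in GFP-negative cells (1.25, adjusted p = 0.0063). Without control replicate 3 the GFP-negative values were 1.52 for SYVN1 and 1.56 for FAM8A1. SYVN1 overlaps the more abundant FAU on the same strand. FAU means went from 296 to 255 CPM in GFP-positive and from 449 to 551 CPM in GFP-negative cells, and the part of this overlap was not tested. Scaffold, ligase and cofactor thus rose in both fractions, each with no overlap between control and treated libraries.

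The derlins are rhomboid-like membrane proteins of the retrotranslocation step. DERL1 went from 49.4, 59 and 64.6 CPM to 137, 128 and 166 CPM in GFP-positive cells, with a log2 fold change of 1.38 ± 0.17 (SE, adjusted p = 1.6e-08), and rose by 1.62 in GFP-negative cells (adjusted p = 0.00024), or 1.61 without control replicate 3. DERL2 went from 28.5, 24.8 and 29.4 CPM to 50.8, 46.1 and 82.3 CPM, with a log2 fold change of 1.18 ± 0.20 (SE, adjusted p = 4.8e-06). In GFP-negative cells DERL2 rose by 0.81 (adjusted p = 0.019), under the 2-fold limit. That call was lost with the GC trend removed (0.53, adjusted p = 0.14) and without control replicate 2 (0.73, adjusted p = 0.095) or treated replicate 1 (0.78, adjusted p = 0.077) or 3 (0.65, adjusted p = 0.079). DERL2 overlaps MIS12 on the opposite strand. MIS12 means went from 16.8 to 25.5 CPM in GFP-positive and from 18.1 to 24.8 CPM in GFP-negative cells, and the part of this overlap was not tested. DERL3, the derlin of secretory tissues, was at or under 0.518 CPM in each library and could not be tested. SELENOK and SELENOS are ER selenoproteins that bind derlins and VCP. SELENOK had 39, 31.9 and 36.4 CPM in control and 87.7, 88.9 and 144 CPM in treated GFP-positive libraries (log2 fold change 1.65 ± 0.19 SE, adjusted p = 4.6e-09). SELENOS went from 39.6–53.7 to 117–155 CPM (1.64 ± 0.18 SE, adjusted p = 1e-09). In GFP-negative cells the log2 fold changes were 1.73 for SELENOK and 2.11 for SELENOS, or 1.52 and 1.89 without control replicate 3, where the control libraries ranged from 26.4 to 56 CPM and from 29.2 to 60.6 CPM.

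**Figure D2:**
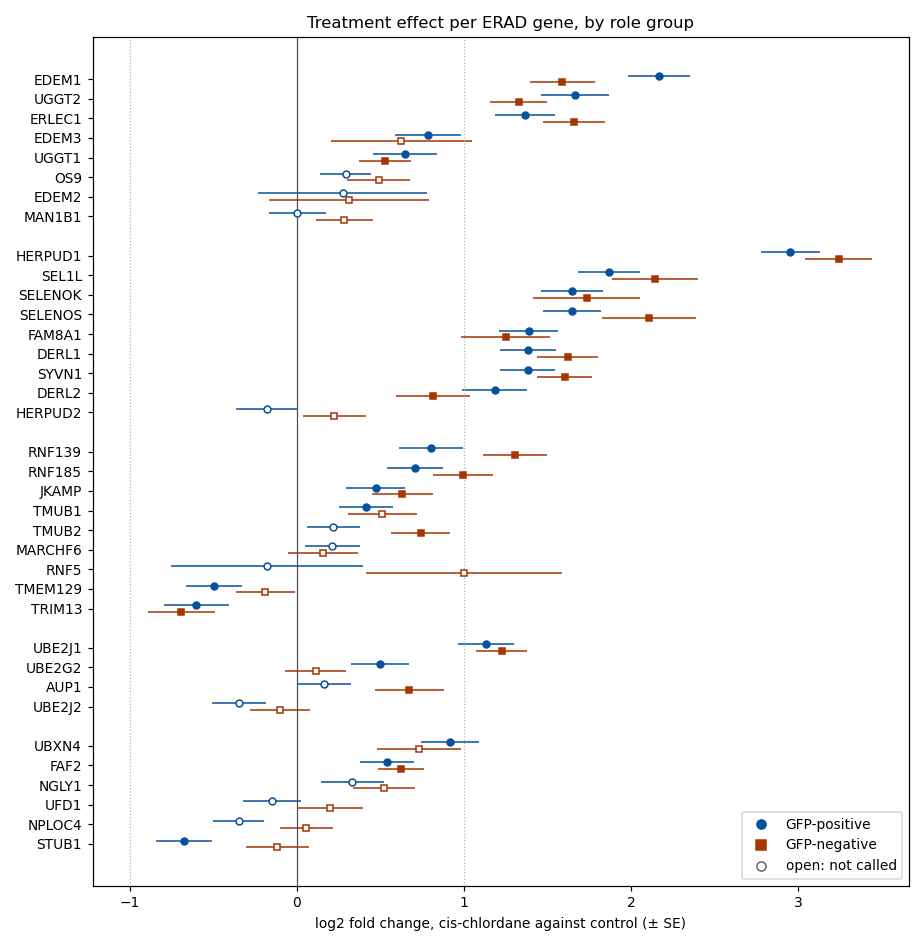
Log2 fold change ± standard error of the 36 tested ERAD genes, cis-chlordane against control, in GFP-positive cells (circles) and GFP-negative cells (squares), grouped by role. Filled symbols had an adjusted p under 0.05, dotted lines mark a 2-fold change, and 8 of the 9 genes of the HRD1 group lie at or beyond it in GFP-positive cells.

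The other membrane ligases changed less and in both directions. RNF139 (TRC8), a ligase of the sterol-regulated branch, had 16, 16.5 and 23.2 CPM in control and 29.4, 34.1 and 29.3 CPM in treated GFP-positive libraries (log2 fold change 0.80, adjusted p = 0.00067). It was the only gene of this group past 2-fold, in GFP-negative cells, where it went from 15.1, 11 and 12.8 CPM to 30.4, 35.7 and 31.3 CPM (1.30, adjusted p = 0.00093, or 1.29 without control replicate 3). RNF139 overlaps TATDN1 on the opposite strand, which also rose. TATDN1 means went from 8.32 to 18.6 CPM in GFP-positive and from 12.4 to 20 CPM in GFP-negative cells, and the part of this overlap was not tested. RNF185, which acts on membrane proteins, rose by 0.71 in GFP-positive (adjusted p = 0.00067) and 0.99 in GFP-negative cells (adjusted p = 0.0029), the latter 0.92 without control replicate 3. Its near relative RNF5 had 0.0746 to 0.734 CPM, while the almost identical copy RNF5P1 had 3.56 to 11 CPM, so reads of the pair may have been assigned to either and no change is given. MARCHF6, the ligase of soluble and membrane substrates with exposed hydrophobic stretches, had 153, 154 and 216 CPM in control and 210, 189 and 178 CPM in treated GFP-positive libraries, which overlapped, and it passed in neither fraction.

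TRIM13 and TMEM129 fell. TRIM13, an ER-anchored ligase with a role in autophagy, had 27.5, 22.7 and 32.9 CPM in control and 15.8, 16.5 and 19.9 CPM in treated GFP-positive libraries, and the log2 fold change was -0.60 ± 0.19 (SE, adjusted p = 0.0092). It had 22.4, 19.3 and 21.5 CPM in control and 12.7, 10.9 and 16 CPM in treated GFP-negative libraries, a log2 fold change of -0.69 ± 0.20 (SE, adjusted p = 0.025), or -0.68 without control replicate 3. Treated libraries lay below all controls in both fractions. The GFP-positive call was lost without control GFP-positive replicate 3 (-0.47, adjusted p = 0.066). In GFP-negative cells it was lost without control replicate 2 (-0.75, adjusted p = 0.07) and without treated replicate 1 (-0.68, adjusted p = 0.11) or 2 (-0.57, adjusted p = 0.089). TMEM129, a ligase first studied for its use by a herpesvirus, had 63.9, 67.5 and 59.2 CPM in control and 44.4, 46.4 and 38.2 CPM in treated GFP-positive libraries (-0.50 ± 0.17 SE, adjusted p = 0.014). That fall was not seen with the GC trend removed (-0.02, adjusted p = 0.91), and the call was lost without treated GFP-positive replicate 3 (-0.42, adjusted p = 0.051). TMEM129 overlaps the mitotic gene TACC3 on the opposite strand, whose mean was 23.6 CPM in control and 10.2 CPM in treated GFP-positive cells and 215 and 58.7 CPM in GFP-negative cells. How the counting treated strand is not given in the sources used here, and its part in the TMEM129 value was not tested.

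JKAMP, TMUB1 and TMUB2 are membrane partners of these ligases. JKAMP went from 28.8–37.5 to 40–48.7 CPM in GFP-positive cells (0.47, adjusted p = 0.025) and from 20.9–26.9 to 32–38.4 CPM in GFP-negative cells (0.63, adjusted p = 0.025), and with the GC trend removed neither was called (-0.05, adjusted p = 0.8, and 0.32, adjusted p = 0.12). The first call was also lost without control GFP-positive replicate 2 (0.36, adjusted p = 0.14) or treated replicate 2 (0.40, adjusted p = 0.098), and the second without control GFP-negative replicate 2 (0.57, adjusted p = 0.13) or treated replicate 1 (0.58, adjusted p = 0.13) or 3 (0.57, adjusted p = 0.087). TMUB1 went from 71.4–89.9 to 96.9–110 CPM in GFP-positive cells (0.42, adjusted p = 0.031), and 1.06 with the GC trend removed (adjusted p = 2.1e-06). Leaving out control GFP-positive replicate 1 or 3 or treated replicate 1 or 2 ended the call (0.31 to 0.45, adjusted p = 0.063 to 0.14). TMUB1 has the transcript with the highest GC content of the 37 genes, 69.7%, and JKAMP the lowest, 36.4%. TMUB2 did not pass in GFP-positive cells, with 113, 131 and 103 CPM in control and 133, 119 and 132 CPM in treated libraries. In GFP-negative cells TMUB2 rose from 96.1, 97.7 and 78.5 CPM to 149, 129 and 184 CPM (0.74, adjusted p = 0.011), or by 0.65 without control replicate 3 (adjusted p = 0.022).

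Among the E2 enzymes, UBE2J1 rose and its paralogue UBE2J2 did not. UBE2J1 is the membrane-anchored E2 that works with HRD1. It had 69.7, 73.3 and 92.1 CPM in control and 157, 142 and 192 CPM in treated GFP-positive libraries, without overlap, and the log2 fold change was 1.13 ± 0.17 (SE, adjusted p = 8.3e-07). In GFP-negative cells it went from 46.1, 49.2 and 55.7 CPM to 124, 113 and 121 CPM (1.22 ± 0.15 SE, adjusted p = 0.00038), or by 1.30 without control replicate 3. UBE2J2 had 107, 111 and 89.6 CPM in control and 76.8, 82.8 and 71.2 CPM in treated GFP-positive libraries, so the treated libraries lay below the controls, but it passed in neither fraction (-0.35, adjusted p = 0.073 in GFP-positive cells). It was called lower in GFP-positive cells with DESeq2 (-0.37, adjusted p = 0.038), with the replicate block (-0.34, adjusted p = 0.042), with all 12 libraries in 1 fit (-0.41, adjusted p = 0.047) and without control replicate 3 (-0.44, adjusted p = 0.036). With the GC trend removed no fall of UBE2J2 was seen there (0.00, adjusted p = 0.99). UBE2J1 was still called there with that trend removed, but under 2-fold (0.70, adjusted p = 0.0002). The CPM ratio of UBE2J1 to UBE2J2 went from 0.65, 0.663 and 1.03 to 2.05, 1.71 and 2.69 in GFP-positive cells and from 0.31, 0.418 and 0.572 to 1.02, 1.06 and 1.04 in GFP-negative cells. UBE2J1 was the 1 gene of the 28 with the UPRE core in its window, on the other strand at -231 to -224 (chr6:89352934-89352965, minus strand). In the stretch shown next capitals mark the core, in reverse complement.
UBE2J1: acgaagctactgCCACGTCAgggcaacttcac
UBE2G2, the E2 of the gp78 branch, went from 35.9 ± 1.96 to 48.3 ± 3.69 CPM (SD, n = 3) in GFP-positive cells (0.50, adjusted p = 0.015), a call lost without control replicate 2 (0.46, adjusted p = 0.054) or treated replicate 2 (0.45, adjusted p = 0.057). It stayed between 35 and 50.4 CPM in GFP-negative cells, where it did not pass. AUP1, which recruits UBE2G2 to membranes and lipid droplets, had 169, 197 and 141 CPM in control and 174, 185 and 181 CPM in treated GFP-positive libraries, which overlapped. In GFP-negative cells AUP1 went from 228, 196 and 172 CPM to 312, 247 and 406 CPM (0.67, adjusted p = 0.031), a call lost without control replicate 3 (0.58, adjusted p = 0.057), and likewise without control replicate 2 (0.67, adjusted p = 0.11) or treated replicate 1 (0.68, adjusted p = 0.085) or 3 (0.46, adjusted p = 0.091).

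**Figure D3:**
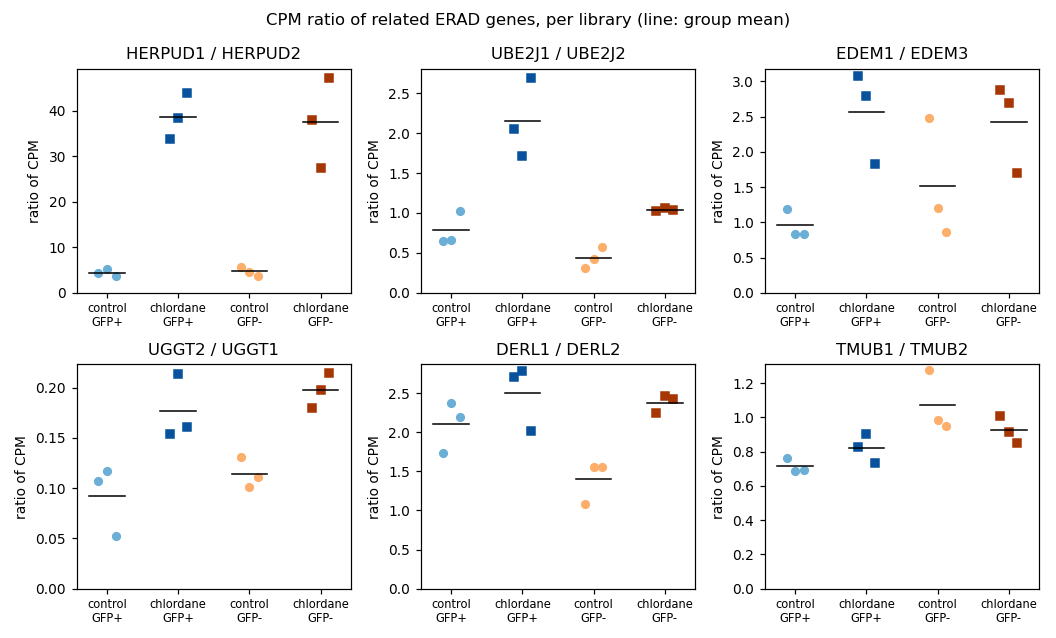
CPM ratio of 6 pairs of related ERAD genes in each library, with a line at the group mean and every axis starting at 0. The HERPUD1 to HERPUD2 ratio lies at 3.78–5.19 in control and 33.8–43.8 in treated GFP-positive libraries, while the TMUB1 to TMUB2 ratio lies at 0.686–0.765 and 0.735–0.906.

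With all libraries the extraction and cytosolic factors were the group with the smallest median change in each fraction (0.09 and 0.36). Without control GFP-negative replicate 3 the E2 genes had the smaller median in GFP-negative cells (0.29 against 0.31). UBXN4 and FAF2, which recruit VCP to the ER membrane, rose. UBXN4 had 55, 48.7 and 58.3 CPM in control and 91, 82.1 and 118 CPM in treated GFP-positive libraries (log2 fold change 0.91, adjusted p = 3.5e-05). In GFP-negative cells it did not pass with all libraries (0.73, adjusted p = 0.05, just over the limit before rounding) and did without control replicate 3 (1.01, adjusted p = 0.006). FAF2 rose by 0.54 in GFP-positive cells (adjusted p = 0.0061) and by 0.62 in GFP-negative cells (adjusted p = 0.0074), the latter without control replicate 2 at 0.61 (adjusted p = 0.051). NPLOC4 and UFD1, the pair that carries ubiquitinated substrates to VCP, did not pass in either fraction, and UFD1 ranged from 46.3 to 109 CPM over the 12 libraries. NPLOC4 had 260, 312 and 279 CPM in control and 215, 212 and 210 CPM in treated GFP-positive libraries, all treated libraries below the controls (-0.35, adjusted p = 0.056). It was called lower there with DESeq2 (adjusted p = 0.021), RLE scaling (0.045), the replicate block (0.029) and all 12 libraries in 1 fit (0.021). With the GC trend removed NPLOC4 was at -0.09 and did not pass (adjusted p = 0.52). NGLY1, which strips sugars from the extracted protein, had 15 to 26.6 CPM over the 12 libraries and passed in neither fraction. In GFP-negative cells its treated libraries (26.6, 24.1 and 19.6 CPM) lay above the controls (16.3, 15 and 17 CPM, 0.52, adjusted p = 0.06). It was called higher there with DESeq2 (adjusted p = 0.034), with all 12 libraries in 1 fit (0.019) and without treated replicate 3 (0.046).

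STUB1 (CHIP), a cytosolic chaperone-bound ligase, was the ERAD gene with the largest fall in GFP-positive cells. It had 138, 164 and 111 CPM in control and 77.9, 90.8 and 78 CPM in treated libraries, without overlap, and a log2 fold change of -0.68 ± 0.17 (SE, adjusted p = 0.00093). With the GC trend removed it did not pass (-0.19, adjusted p = 0.21), and its transcript holds 63.9% GC. In GFP-negative cells it had 182, 146 and 124 CPM in control and 136, 121 and 165 CPM in treated libraries, which overlapped, and it did not pass. STUB1 overlaps JMJD8 on the opposite strand, with means of 62 CPM in control and 48.7 CPM in treated GFP-positive cells.

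Removing the trend of counts with transcript GC content in each library moved several of these values. In GFP-positive cells STUB1, TMEM129, JKAMP and EDEM3 were no longer called, while OS9, MAN1B1, TMUB2 and AUP1 were. The fall of TRIM13 grew to -1.01 (adjusted p = 2.8e-05). In the HRD1 group the log2 fold changes after removal were 2.89 for HERPUD1, 1.70 for SYVN1, 1.62 for SELENOS, 1.47 for SEL1L, 1.31 for SELENOK, 1.18 for DERL1, 1.07 for FAM8A1 and 0.75 for DERL2, and all 8 were still called.

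**Figure D4:**
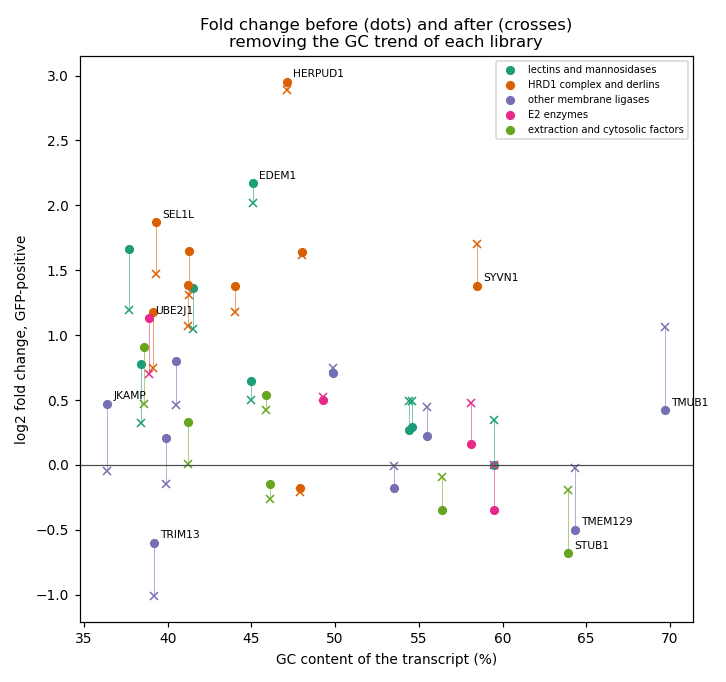
Log2 fold change in GFP-positive cells against transcript GC content (%) of the tested ERAD genes, as measured (dots) and after removing each library's GC trend (crosses), coloured by role group. The crosses of STUB1 and TMEM129, at 63.9 and 64.3% GC, lie at -0.19 and -0.02, while HERPUD1 moves from 2.95 to 2.89.

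Levels of different genes can be compared only per length, here as mean CPM per kilobase of the canonical transcript. In control GFP-positive cells the order began with OS9 (138 CPM per kb), AUP1 (116), STUB1 (103), NPLOC4 (64.7) and TMUB1 (63.7), and HERPUD1 came at place 8 with 45.1 CPM per kb. Among the least abundant were EDEM1 (3.43 CPM per kb), EDEM3 (3.26) and UGGT2 (1.72). In treated GFP-positive cells HERPUD1 stood first with 333 CPM per kb, followed by OS9 (161), AUP1 (124) and SELENOS (109), while STUB1 came at place 8 with 61.4 CPM per kb. EDEM1 went from place 32 to place 25, SEL1L from 29 to 20 and SELENOK from 13 to 7. In GFP-negative cells HERPUD1 went from place 11 (31.3 CPM per kb) to the first (301 CPM per kb).

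**Figure D5:**
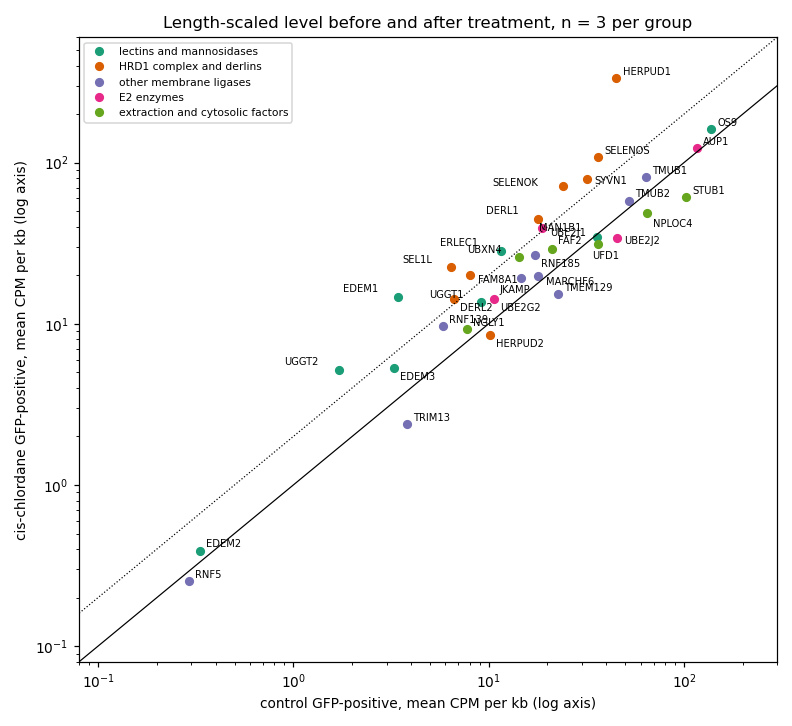
Mean CPM per kilobase of transcript in control (x, log axis) and cis-chlordane-treated (y, log axis) GFP-positive cells, n = 3 libraries each, for the ERAD genes other than DERL3. The solid line marks equal levels and the dotted line a 2-fold rise, and HERPUD1 lies at 45.1 and 333 CPM per kb.

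The difference in response between the sort fractions was tested as an interaction for the same genes. In both fractions 17 ERAD genes rose and TRIM13 fell. In GFP-positive cells alone EDEM3, TMUB1, UBE2G2 and UBXN4 were called higher and TMEM129 and STUB1 lower, and in GFP-negative cells alone AUP1 and TMUB2 were called higher. The share of all genes with each of these patterns was not computed, and a call in 1 fraction alone is not a difference between fractions. TMUB1 had the larger change in GFP-negative cells (0.51, adjusted p = 0.086), and it was called there with the GC trend removed (0.90, adjusted p = 0.0014). The interaction passed for 0 of the 36 genes (smallest adjusted p = 0.18, for TMUB2, with edgeR's quasi-likelihood test), where 2.19% of 16226 genes passed. An unadjusted p under 0.05 was found for 5 of the 36 and for 16.6% of all genes, and DESeq2 called 0 of the 36 and 4.81% of all genes. Sort fractions with 1 treatment and 1 replicate number were taken by their titles as 1 culture. With the culture as a block TMUB2 alone passed, with a log2 response smaller in GFP-positive cells (difference -0.60, adjusted p = 0.046), where 7.79% of all genes passed. The TMUB2 difference was below 0 in each of the 18 alternatives. Of all genes tested, 157 were called with an interaction above 0 and 198 below it, and 266 and 84 when scaled by library size alone. Scaling by library size alone moved the median interaction of all genes from -0.05 to 0.20.

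The sort fractions were also compared without pesticide. In control GFP-positive against control GFP-negative cells 4 of 36 were higher and 0 lower, where 17.1% of 15404 genes were higher and 23.1% lower. An unadjusted p under 0.05 was found for 9 of the 36 and for 49% of all genes, and DESeq2 called 6 higher and 0 lower, against 19.3% and 22.8% of all genes. With the culture as a block, which pairs the fractions, 7 were higher, with SEL1L, HERPUD2 and JKAMP added, and 6 were lower, namely DERL2, TMEM129, TMUB1, UBE2J2, AUP1 and UFD1, where 23.9% of all genes were higher and 27.7% lower. FAM8A1 had 34.9, 32.2 and 47 CPM in GFP-positive and 14, 16.8 and 26.8 CPM in GFP-negative libraries (log2 fold change 0.87 ± 0.27 SE, adjusted p = 0.025). MARCHF6 had 153, 154 and 216 CPM against 66.3, 96.7 and 119 CPM (0.78 ± 0.23 SE, adjusted p = 0.022). UBE2J1 was higher by 0.53 (adjusted p = 0.028) and HERPUD1 by 0.42 (adjusted p = 0.025). For each of the 4 genes all GFP-positive libraries lay above all GFP-negative ones. Without control GFP-negative replicate 3, 8 were higher and 5 lower, against 22.1% and 25% of all genes, and HERPUD1 was not among them (0.41, adjusted p = 0.059). Without control GFP-positive replicate 3 none was called, where 11.5% of all genes were higher and 17.7% lower. There FAM8A1 was at 0.70 (adjusted p = 0.11), MARCHF6 at 0.60 (adjusted p = 0.099), UBE2J1 at 0.40 (adjusted p = 0.12) and HERPUD1 at 0.44 (adjusted p = 0.061). Without control GFP-negative replicate 2 MARCHF6 alone was higher, against 12.2% higher and 18.4% lower of all genes. Without control GFP-positive replicate 1 only MARCHF6 and UBE2J1 were higher, against 12.2% higher and 18.1% lower of all genes. Counts of calls in this comparison thus changed with single libraries, for the ERAD genes and for all genes.

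A further 74 ERAD genes outside the 37, a list of chaperones, mannosidases, ligases, E2 enzymes, shuttle factors and deubiquitinases, were set beside them. In GFP-positive cells 34 rose and 6 fell, where 26.5% and 24.4% of all genes did. By at least 2-fold 20 rose and 3 fell, against 12.8% and 11.2% of all genes. The median log2 fold change was 0.34, beside 0.03 over all genes. In GFP-negative cells 25 rose and 5 fell, with a median of 0.50, where 15.3% and 16.2% of all genes did. Without control replicate 3, 31 rose and 4 fell, with a median of 0.48, against 17.5% and 17.4% of all genes. The 5 largest rises in GFP-positive cells were all chaperones or co-chaperones of the ER. HSPA5 (BiP), the main ER chaperone, went from 293–358 to 2840–3649 CPM (3.38, adjusted p = 1.2e-17). DNAJC3 rose by 2.84, HSP90B1 by 2.69, DNAJB9 by 2.42 and DNAJC10 by 2.22. The 5 largest falls were MAN1C1, a Golgi mannosidase (-2.16), INSIG1, the sterol-sensing partner of ER ligases (-1.89), the glycoprotein-binding FBXO2 (-1.13), FOXRED2 (-0.71) and the deubiquitinase USP19 (-0.70). FBXO2 was at -0.62 with the GC trend removed (adjusted p = 0.048) and was not called when the replicate block was added to that (-0.63, adjusted p = 0.059). INSIG1 went from 64.4–85.1 to 17.5–21.6 CPM (adjusted p = 9.6e-11). VCP, the ATPase of the extraction step, had 652, 768 and 657 CPM in control and 619, 570 and 642 CPM in treated GFP-positive libraries and did not pass. The treated libraries lay below the controls there. In GFP-negative cells they lay above them, with 699, 667 and 582 CPM in control and 814, 793 and 868 CPM after treatment. VCP did not pass there either (0.33, adjusted p = 0.11).

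ERSE or ERSE-II was found in the windows of 5 of the 59 other ERAD genes with one (8.47%), against 0.208% of the 18292 genes of the table. This list was chosen by name and holds ER chaperones, genes of the kind from which the elements are known. The shares therefore describe the list and do not test for enrichment. The stretches of these genes are shown beside that of HERPUD1 to let the elements be compared. In each, capitals mark both parts of the element, CALR and SDF2L1 carry it in reverse complement, and HSP90B1 carries one in each direction. CANX matches ERSE at -151 to -133, which is shown, and at -9 to 10 from the same start. A match at -189 to -171 is counted from another start of CANX. Whether it is a separate site was not tested. Positions are chr9:125241379-125241421 (minus strand) for HSPA5, chr12:103930204-103930351 (plus) for HSP90B1, chr5:179698766-179698808 (plus) for CANX, chr19:12938372-12938414 (plus) for CALR and chr22:21642102-21642136 (plus) for SDF2L1.
HSPA5: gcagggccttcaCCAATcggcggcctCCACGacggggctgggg
HSP90B1: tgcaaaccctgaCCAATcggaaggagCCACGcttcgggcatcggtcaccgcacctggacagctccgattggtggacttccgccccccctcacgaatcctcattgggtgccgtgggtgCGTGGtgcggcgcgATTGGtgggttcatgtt
CANX: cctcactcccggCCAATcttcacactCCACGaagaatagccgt
CALR: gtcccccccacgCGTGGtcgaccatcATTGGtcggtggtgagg
SDF2L1: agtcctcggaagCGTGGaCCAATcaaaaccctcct
CANX and CALR, the lectin chaperones, rose by 1.95 and 1.21 in GFP-positive cells (adjusted p = 2.1e-11 and 5.7e-08), and SDF2L1, a partner of BiP, by 1.41 (adjusted p = 6e-08).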

How the data were processed

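RNA-seq counts of 12 libraries were analysed, 3 in each of 4 groups taken from the sample titles. Sequencing lanes were merged by the authors, who inspected read quality in FASTQC and aligned the single-end reads as reverse-stranded with HISAT2 (hg38, Ensembl annotation) and per the labels counted them with featureCounts; versions and the strand setting of the counting are not given in the sources used here. The deposited values are raw counts per gene, and 0 per-sample columns were left unused. Gene positions, canonical transcript lengths and GC content came from hg38 with GENCODE release 44 (another annotation than the authors used), and all 37 ERAD genes were matched. The symbols of 1545 rows start with LOC, and 0 rows are mitochondrially encoded.

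Counts were tested with edgeR 4.0.16 in R 4.3.3 (TMM scaling, filterByExpr with a minimum count of 10 and total of 15, quasi-likelihood F-test, Benjamini-Hochberg adjustment over all genes tested), within each sort fraction, between control fractions, and for the interaction over 12 libraries. A gene was called at an adjusted p under 0.05, and counts with a fold change of at least 2 are given beside. The members and lists were chosen with earlier results of these data known. Values in every library are given for up to 3 genes per role with the largest change of at least 2-fold in GFP-positive cells, for genes called against the majority, for up to 3 called between control fractions, and for their paralogues; of the other ERAD genes the 5 largest changes in each direction were named. CANX, CALR, SDF2L1 and VCP and the overlapping genes were added after their values were seen.

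Alternatives were DESeq2 1.42.0, RLE scaling, scaling by library size only, a filter of 10 counts in every library, no filter, a replicate block, removal of each library's GC trend (loess, span 0.5), all 12 libraries in 1 fit, glmTreat from edgeR, and each library left out. The fits were also run on simulated counts with known changes. Same-numbered sort fractions of 1 treatment were taken by their titles as pairs from 1 culture. Their deviations from group means had correlations of 0.385, 0.118 and 0.328 for controls and 0.2, 0.241 and 0.476 for treated cells, over 16226 genes. Same-numbered control and treated libraries correlated at -0.039, 0.162 and 0.203 in GFP-positive and -0.031, 0.299 and -0.019 in GFP-negative cells, so those were not taken as pairs. No library duplicated another. Depth per library sets the precision for genes near 1 CPM. Plots were made in Python 3.11.15 with matplotlib 3.10.9.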

Additional observations from a re-analysis of the deposited data

Results flagged for a closer look

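TMUB2 was flagged because its response to cis-chlordane differed between the sort fractions when the culture was taken as a block, with a log2 difference of -0.60 (GFP-positive minus GFP-negative response, adjusted p = 0.046). Without the block the difference was -0.61 (adjusted p = 0.18), and over the alternatives tried it ranged from -0.71 to -0.35 with adjusted p from 0.046 to 0.41. TMUB2 lies opposite ATXN7L3, which had 216 to 404 CPM over the libraries, and the part of that overlap was not tested.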

How the results depend on the processing

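Of the 24 ERAD genes called in GFP-positive cells 16 were called in each of the 15 alternatives that test for any change (glmTreat left out), and of the 20 in GFP-negative cells 14 were. The share of all called genes that stayed called in this way was not computed. In GFP-positive cells the count of genes that fell, 3, was 5 with DESeq2, with a replicate block and with all 12 libraries in 1 fit, and 1 with the GC trend removed, alone or with the replicate block. Of all genes 3748 of 15333 fell in the main fit, 3929 with DESeq2 and 3968 with the block. In 1 fit 3780 of 16226 fell, and with the GC trend removed 3271 of 14552, or 3176 with the block added. With the GC trend removed, alone or with the replicate block, 1 gene fell by at least 2-fold instead of 0, and JKAMP turned to -0.047 and -0.051. Of all genes 1278 and 1271 of 14552 then fell by at least 2-fold, where 1716 of 15333 did in the main fit. In GFP-negative cells glmTreat, which tests against a 2-fold change, called 7 genes higher instead of 12, and the 1 gene that fell became 0 to 1 when single libraries were left out. Of all 15513 genes glmTreat called 446 higher instead of 1332. The count of all genes that fell, 2520, became 1414 to 2760 when single libraries were left out. In the interaction the replicate block, here the culture, called 1 gene instead of 0. Between control fractions the replicate block gave 7 higher and 6 lower instead of 4 and 0, all 12 libraries in 1 fit gave 7 higher, and leaving out single libraries gave 0 to 8 higher and 0 to 5 lower. Of all genes 2638 of 15404 were higher in the main fit, 3682 with the block and 3631 of 16226 in 1 fit. Whether same-numbered control and treated libraries share more than a number is not given in the titles. The replicate block changed no other count of calls by more than 1.5 times. The causes were not tested. Scaling by library size alone moved the median of all genes in GFP-positive cells from 0.03 to 0.14. Genes near 1 CPM (EDEM2, RNF5, DERL3) are limited by depth.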
